A study of Mus musculus with 4 samples.

Results

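Accessible sites at gene ends that were called at a strict threshold in both libraries made up 9428 of the 19820 strict 0 h peaks on mouse chromosomes 1 to 19 and X, or 47.6%. They were the peaks called at a p-value threshold of 1e-10 in the 0 h library that shared at least 1 bp with a 1e-10 peak of the 72 h library, and whose midpoint was at most 1 kb from the start or the end of a protein-coding RefSeq gene. The members were thus chosen by the calls in both libraries and by their position at a gene end, and these 2 properties are given as a description. Each deposited peak reaches 300 bp to the left and right of its summit, which is therefore its midpoint. Peaks named "strict" below are the 1e-10 peaks, and "lenient" those at 1e-05.

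The assay was ATAC-seq, in which the Tn5 transposase cuts open chromatin and leaves nucleosome-packed DNA largely uncut. It was run on organoids, hollow epithelial cultures grown from intestinal crypts of the proximal jejunum of C57BL/6J mice, with 30000 cells in each library. The 0 h organoids were kept in medium with CHIR99021, which turns on Wnt signalling by blocking GSK3, with valproic acid (an inhibitor of histone deacetylases), EGF, Noggin (which binds and blocks BMPs) and R-spondin. For the 72 h organoids CHIR99021, valproic acid and Noggin were withdrawn and recombinant BMP2 was given at 100 ng/mL, so that what 72 h of BMP2 did and what the change of medium did cannot be told apart. EGF and R-spondin were common to both. Of the 4 time points, 24 h and 48 h were not analysed here, and the libraries used are 1 at 0 h and 1 at 72 h.

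RNA polymerase II starts transcription at promoters, where a stretch free of nucleosomes just upstream of the start lets the general initiation factors bind. In mammals most promoters of genes used by every cell lie in CpG islands, stretches rich in the dinucleotide CpG, while promoters of genes used by 1 cell type are often poor in CpG and more often carry a TATA box. Intestinal epithelium renews itself from crypt stem cells kept by Wnt signalling, and its absorptive cells, the enterocytes, mature along the villus, where BMP signalling is stronger.

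Of the sequence features described below, these promoters show the ones that separated the shared gene-end sites from other promoters, or one gene group from another. Each line gives the 120 bases upstream of the gene start from RefSeq on GRCm38.p6, 5′ to 3′ on the gene's strand, in lower case, with the matched motif in capitals on whichever strand it was found. Med17 (chr9:15279907-15280026, minus strand) is shown for the ETS motif, Mrpl32 (chr13:14613038-14613157, minus strand) for repeated NRF1 motifs, Rps9 (chr7:3703921-3704040, plus strand) for the CRE, Taf12 (chr4:132274255-132274374, plus strand) for ZNF143, Mrps14 (chr1:160195095-160195214, plus strand) for the GC box, and Mcm7 (chr5:138171267-138171386, minus strand) for the CCAAT box of a replication gene. Cdhr2 (chr13:54701343-54701462, plus strand) is shown as a CpG-poor promoter of the set with an HNF4 motif. Foxa3 (chr7:19023540-19023659, minus strand) has a TATA box and a shared peak, and Defa22 (chr8:21162157-21162276, plus strand), a Paneth cell defensin gene, has a TATA box and no peak within 1 kb of its start in either library.
Med17: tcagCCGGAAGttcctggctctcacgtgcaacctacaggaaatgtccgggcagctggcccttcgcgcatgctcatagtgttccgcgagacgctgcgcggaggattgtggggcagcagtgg
Mrpl32: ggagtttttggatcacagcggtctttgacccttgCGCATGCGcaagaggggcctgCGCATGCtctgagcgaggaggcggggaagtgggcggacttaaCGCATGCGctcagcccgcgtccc
Rps9: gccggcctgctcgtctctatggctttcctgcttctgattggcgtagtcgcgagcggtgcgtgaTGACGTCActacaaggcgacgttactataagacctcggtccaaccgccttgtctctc
Taf12: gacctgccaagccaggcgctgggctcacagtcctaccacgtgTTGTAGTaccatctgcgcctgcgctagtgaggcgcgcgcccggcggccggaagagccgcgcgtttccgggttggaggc
Mrps14: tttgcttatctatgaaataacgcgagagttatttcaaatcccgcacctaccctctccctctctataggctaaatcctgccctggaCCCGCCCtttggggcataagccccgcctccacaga
Mcm7: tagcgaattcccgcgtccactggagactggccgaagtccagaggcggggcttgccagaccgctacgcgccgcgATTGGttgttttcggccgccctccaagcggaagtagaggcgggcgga
Cdhr2: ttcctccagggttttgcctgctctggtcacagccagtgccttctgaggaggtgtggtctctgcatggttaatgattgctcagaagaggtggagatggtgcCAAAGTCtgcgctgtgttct
Foxa3: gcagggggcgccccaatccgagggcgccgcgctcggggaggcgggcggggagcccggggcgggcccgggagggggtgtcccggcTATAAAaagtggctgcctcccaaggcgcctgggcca
Defa22: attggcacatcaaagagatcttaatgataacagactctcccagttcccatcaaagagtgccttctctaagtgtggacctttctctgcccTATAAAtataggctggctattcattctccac

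The printed promoters were picked by how near the summit lay to the start, so their positions are a description. For Med17, a subunit of the Mediator complex that links transcription factors to the polymerase, the summit lay 1 bp upstream of the start at 0 h and 43 bp downstream at 72 h. For Taf12, a subunit of the initiation factor TFIID, the positions were 13 bp upstream and 27 bp downstream. For Mcm7, a subunit of the replicative helicase, the summit moved from 4 bp downstream to 5 bp upstream. The promoter of Cdhr2, a protocadherin that links microvilli of the brush border, had summits 22 bp upstream at 0 h and 84 bp upstream at 72 h. Others moved further, from 3 bp downstream to 175 bp upstream at Mrps14, from 1 bp to 127 bp upstream at Mrpl32 and from 146 bp to 75 bp upstream at Foxa3. The CpG ratio, the observed number of CpG dinucleotides over that expected from the C and G content of the 300 bases from 250 before to 50 after the start, was 0.87 for Med17, 1.01 for Taf12 and 0.159 for Cdhr2.

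Nearly all strict peaks at gene ends were shared. Of 10356 strict 0 h peaks within 1 kb of a gene end, 9428 (91%, exact Clopper-Pearson 95% interval 90.5 to 91.6) met a strict 72 h peak, 661 (6.38%) met only a weaker 72 h peak and 267 (2.58%) met none. Of 10501 strict 72 h peaks at gene ends, 9724 (92.6%) met a strict 0 h peak and 265 (2.52%) met no 0 h peak. Away from gene ends, 6982 of 9464 strict 0 h peaks (73.8%) and 7124 of 14431 strict 72 h peaks (49.4%) were shared. All intervals cover counting error only, since each time point is 1 library with no replicate, and the deposited lists carry no height, so that a shared call does not show equal accessibility. In a bulk library a site open in a few cells and one weakly open in many cannot be told apart.

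The 9428 peaks merged into 8581 separate sites, of which 806 held 2 or more overlapping peaks. Only 1 peak of the set was in the authors' deposited list of 1269 regions enriched at 0 h. Of the 9122 distinct 72 h partners, 0 were in their list of 4512 regions for 72 h. The rule, which asked for a strict peak of the other library, leaves little room for any other count. That 1 peak lay at Tmem267 (chr13:119487480-119488080) and touched its 72 h partner (chr13:119488080-119488680) by a single base, with summits 600 bp apart. At the distance limit, the shared peaks just inside lay at Syngr2, Fat4 and S100a10, each 1000 bp from a gene end. Those just outside lay at Fasn, 1001 bp away, Ulk2 at 1002 bp and Thra at 1003 bp.

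Most of the set crowded onto the gene boundary itself. Of the 9428 summits, 5536 (58.7%) lay within 100 bp of the nearest gene end, 1362 (14.4%) from there to 200 bp, 1597 (16.9%) to 500 bp, 678 (7.19%) to 800 bp and 255 (2.7%) beyond. The rule did not say which end of the gene. For 7680 peaks the nearest gene had a RefSeq promoter entry, which gives the strand, and 7551 of them (98.3%, 98 to 98.6) lay within 1 kb of a gene start, 5226 (68%) within 100 bp of one. Only 122 (1.59%, 1.32 to 1.89) lay at 3′ ends alone. Of the gene-end peaks strict in 1 library and absent from the other, 15 of 202 at 0 h (7.43%, 4.22 to 12) and 58 of 215 at 72 h (27%, 21.2 to 33.4) were at 3′ ends alone. By position, nearly every peak with a known strand was therefore near a gene start, and the 72 h-only gene-end peaks had a larger share at 3′ ends, with intervals that did not overlap.

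At 0 h the median summit lay 34 bp upstream of the nearest start (quartiles 96 bp upstream to 23 bp downstream, n = 7365 peaks), and at 72 h it lay 37 bp upstream (106 bp upstream to 27 bp downstream). Taken peak by peak, the shift from 0 h to 72 h had a median of 0 bp, with quartiles of 28 bp upstream and 24 bp downstream. Upstream shifts (49.9%) and downstream shifts (48.3%) were almost equally frequent. The summits at both times thus covered the same stretch around the start, with no common direction of movement.

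**Figure D1:**
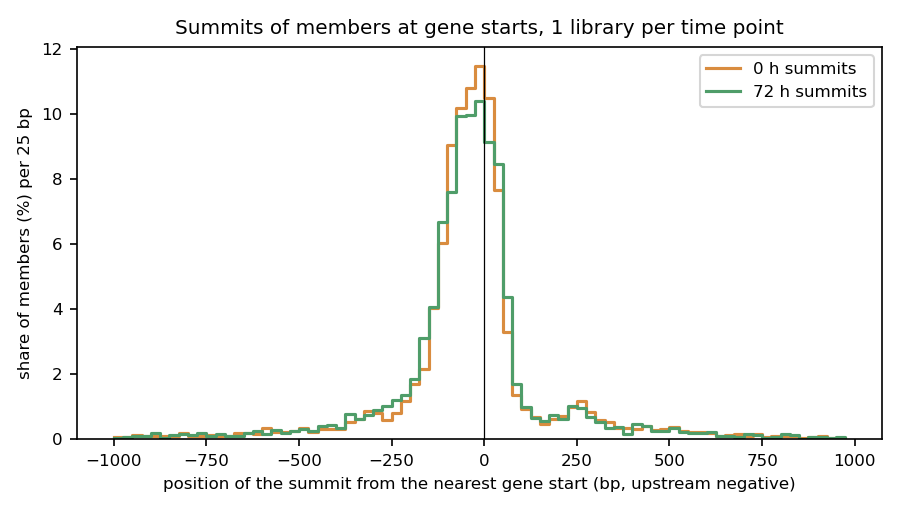
Position of the summit from the nearest gene start (x axis, bp, upstream negative) against the share of peaks per 25 bp (y axis, %), for the 0 h and 72 h libraries over the same 7365 peaks. Both lines peak just upstream of the start, with medians of 34 bp and 37 bp upstream.

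For most peaks of the set the 0 h and 72 h summits lay within 50 bp of each other. The distance between the 0 h summit and its nearest 72 h partner, for which the rule allowed anything up to 600 bp, had a median of 26 bp (quartiles 10 to 63 bp). Of the 9428 pairs, 6642 (70.4%, 69.5 to 71.4) were within 50 bp, 166 were at the same base and 314 (3.33%) were over 300 bp apart. Distal peaks strict in both libraries lay closer, with a median of 24 bp (9 to 53 bp) and 73.9% (72.9 to 75) within 50 bp. More of the gene-end peaks had a choice of partners, 1692 (17.9%) against 673 (9.64%) of the distal ones. Among peaks with 1 partner the shares within 50 bp were 69.1% (68 to 70.1) at gene ends and 73.3% (72.2 to 74.4) at distal sites, so the gap between the sets remained.

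**Figure D2:**
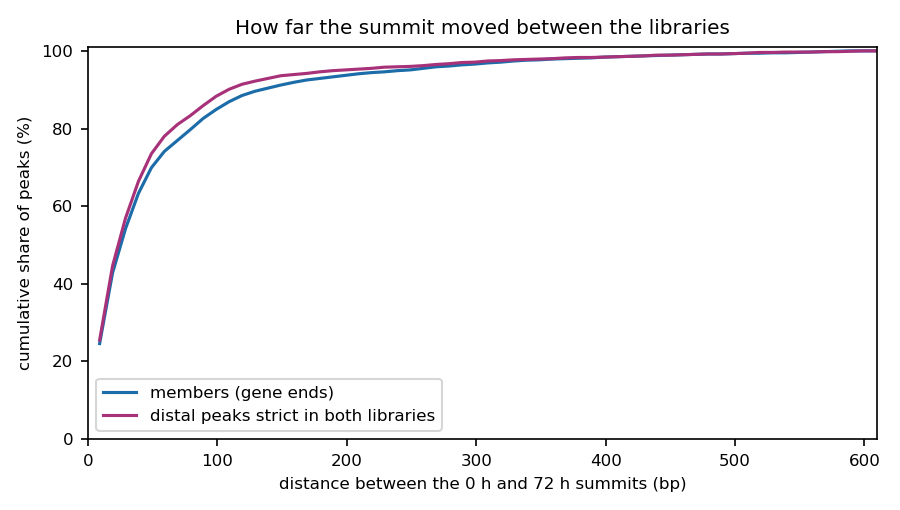
Cumulative share of peaks (y axis, %) by distance between the 0 h and 72 h summits (x axis, bp) for the 9428 gene-end peaks and the 6982 distal peaks strict in both libraries. The gene-end line runs slightly below the distal line up to about 300 bp.

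The 5 largest distances belonged to Tmem267 (600 bp), Gabarap and Abr (599 bp each), Igf1r (593 bp) and Oat (589 bp). Gabarap acts in autophagosome formation, Igf1r is the receptor for insulin-like growth factor 1, and Oat is ornithine aminotransferase. These pairs overlapped by a few bases only and are shared calls by the overlap rule rather than shared summits. Shared peaks at 3′ ends alone had summits within 50 bp in 97 of 122 cases (79.5%, 71.3 to 86.3), against 70% (68.9 to 71) at starts.

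Of the 21631 protein-coding genes, 9482 had a peak of the set at an end, or 43.8% (43.2 to 44.5). A further 24 had strict peaks in both libraries that did not overlap, 771 (3.56%) a strict peak at 0 h only, 567 (2.62%) one at 72 h only, 1401 (6.48%) lenient peaks alone and 9386 (43.4%) no peak. Strict at 1 time only does not mean absent at the other, since 558 of the 771 genes (72.4%) and 392 of the 567 (69.1%) had a lenient peak of the other library at an end. One peak was found at 7950 of the 9482 genes, 2 at 1402 genes, 3 at 120 and 4 at 10 genes. The 10 with 4 peaks were Bad, Ctdnep1, Enkur, Fbxl15, Hcfc1, Naa50, Nek8, Thnsl1, Tsen54 and Usp5. Enkur and Thnsl1 start head to head and share 1 stretch of 1.45 kb (chr2:21204829-21206276) with all 4 of their peaks, whereas at Usp5, a deubiquitinase gene, the peaks spread over 16.4 kb and both gene ends. The autosomes ranged from 36% of genes on chromosome 7 to 52.9% on chromosome 8. On the X chromosome 205 of 966 genes (21.2%, 18.7 to 23.9) had a shared gene-end peak, against 9277 of 20665 (44.9%) on the autosomes.

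Genes of basic cell functions nearly all had such a peak. Of the 496 genes in 11 lists of general machinery, 439 (88.5%, 85.4 to 91.2) had a shared gene-end peak, beside 43.8% of all protein-coding genes. All 32 spliceosome genes had one, among them Sf3a1 and Sf3b1, and so did all 35 translation initiation factor genes, among them Eif1 and Eif2s1. The share was 28 of 30 for Mediator, with Med18 strict at 0 h only and Med10 without a peak, and 33 of 37 for RNA polymerase II and its initiation factors, where Taf1 had none. Cytosolic ribosomal proteins had 79 of 85, mitochondrial ribosomal proteins 68 of 78, proteasome subunits 41 of 48, chaperonin and prefoldin 12 of 14, vesicle coats 18 of 20, and chromatin remodelling and cohesin genes 28 of 32. At Polr2a, which encodes the large catalytic subunit of the polymerase, the summits of the 2 libraries lay 39 bp apart, and at Med7 they lay 4 bp apart.

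Oxidative phosphorylation subunits had the lowest share of these lists, 65 of 85 (76.5%, 66 to 85). Among the other 20, strict peaks at 0 h only were found at 7, including Atp5j2, Atp5l and Ndufa1 (6 of the 7 with a lenient 72 h peak), a strict peak at 72 h only at Ndufa9, lenient peaks at 3 and none at 9, among them Cox4i2 and Cox6a2, forms of cytochrome oxidase known from lung and from muscle. Of 30 replication and mitosis genes 29 (96.7%, 82.8 to 99.9) had a shared peak, including Mki67, Top2a and Mcm2, with summit distances of 2, 155 and 12 bp. Orc1, of the origin recognition complex, had none.

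Genes of the intestinal epithelium were more divided. Of 190 genes in 7 lists, 109 (57.4%, 50 to 64.5) had a shared gene-end peak, 13 a strict peak at 0 h only, 22 at 72 h only, 26 lenient peaks alone and 19 no peak. Of the 13 genes, 10 had a lenient peak at an end at 72 h, and of the 22 genes, 10 (45.5%) had one at 0 h. This left 12 with no 0 h peak within 1 kb of either end, among them Alpi, Sis, Fabp2 and Slc15a1. The lists differed in which library held the rest. In stem cell and Wnt target genes, 18 of 29 were shared, including the stem cell receptor gene Lgr5 and the Wnt-limiting ubiquitin ligase genes Rnf43 and Znrf3, and 6 were strict at 0 h only: Ascl2, Smoc2, Myc, Prom1, Msi1 and Lrp5. All of these but Lrp5 had a lenient 72 h peak. None of that list was strict at 72 h only. In nutrient transporters the reverse was found by strict peaks, with 8 of 25 shared, 9 strict at 72 h only, among them the peptide transporter Slc15a1 and the iron transporter Slc11a2, and 1 at 0 h only, the phosphate transporter Slc34a2. Of those 9, 4 had a lenient 0 h peak at an end, and Slc34a2 had a lenient 72 h peak. Brush border and digestive enzyme genes had 11 of 25 shared, 7 strict at 72 h only, including Sis, Dpp4 and Alpi, which encode digestive enzymes of the apical membrane, and none at 0 h only. Of those 7, 4 had a lenient 0 h peak at an end, Dpp4 among them. Over all protein-coding genes 3.56% were strict at 0 h only and 2.62% at 72 h only.

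Within the brush border list the first genes with a shared peak were Vil1, Ezr, Myo1a, Myo7b, Cdhr2 and Cdhr5, which build or anchor microvilli, and the 11 also included Mep1a, which encodes a digestive peptidase. For the 6 microvillus genes named, the summits moved by 9, 85, 5, 35, 62 and 17 bp, and for Mep1a by 9 bp. Of the lipid genes 14 of 27 were shared, including Mttp, which loads lipid onto apolipoprotein B, and the triglyceride synthesis genes Dgat1, Dgat2 and Mogat2. The fatty acid binding protein gene Fabp2 and the sterol transporter genes Npc1l1 and Abcg5 were strict at 72 h only, and Abcg5 had a lenient 0 h peak at an end. Tight junction and adhesion genes had 18 of 27 shared.

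Transcription factor genes of the intestine had 18 of 30 shared. The first were Cdx2, Cdx1, Hnf4a, Gata6, Klf4 and Klf5, regulators of intestinal identity and maturation, with summit distances of 14, 5, 10, 7, 23 and 37 bp. Gata4, Foxa2 and Sox9 were among those strict at 0 h only, of which Foxa2 alone had no lenient 72 h peak at an end. Hnf4g was strict at 72 h only, with a lenient 0 h peak. At the 1 kb window the BMP-SMAD list had the highest share of the epithelial lists, 22 of 27 (81.5%, 61.9 to 93.7). With a window of 0.5 kb it did not stand apart. It then had 16 of 27, beside 16 of 27 for tight junction and adhesion genes and 17 of 29 for stem cell and Wnt genes. Shared peaks lay at the receptor genes Bmpr1a, Bmpr2, Acvr1, Acvr2a and Acvr2b, and at Smad1, a SMAD that BMP receptors phosphorylate. Their summit distances were 156, 4, 337, 112, 141 and 15 bp. The homeobox gene Msx2, a known BMP target, was strict at 0 h and had no 72 h peak at an end. The genes of the antagonists Noggin and Gremlin (Nog, Grem1) had no peak at either end.

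Genes that mark rare or foreign cells were nearly empty of shared gene-end peaks. In secretory and tuft cell lists 3 of 56 genes had one (5.36%, 1.12 to 14.9), namely Guca2a, Chgb and Il17rb. The peak at Il17rb lay where that gene starts 5 bp from Chdh, a choline metabolism gene, in the opposite direction. Of the 10 epithelial genes used to check the cells, among them Epcam, Cdh1 and Vil1, 8 had a shared peak, with Krt18 strict at 0 h only and Krt20 at 72 h only. Of 38 fibroblast, immune and endothelial marker genes 2 (5.26%, 0.644 to 17.7) had one, Itgam and Spi1. The peak at Itgam lay 765 bp from its 3′ end. The pan-immune Ptprc, the fibroblast gene Pdgfra and the endothelial Pecam1 had no peak at either end in either library. Neuronal, muscle, germ cell and chemoreceptor genes had 7 of 1517 (0.461%, 0.186 to 0.948), with 0 of 1110 olfactory receptors and 3 of 353 vomeronasal receptors. Of those 3, Vmn1r4 shared its peak with an end of Nt5c3.

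**Figure D3:**
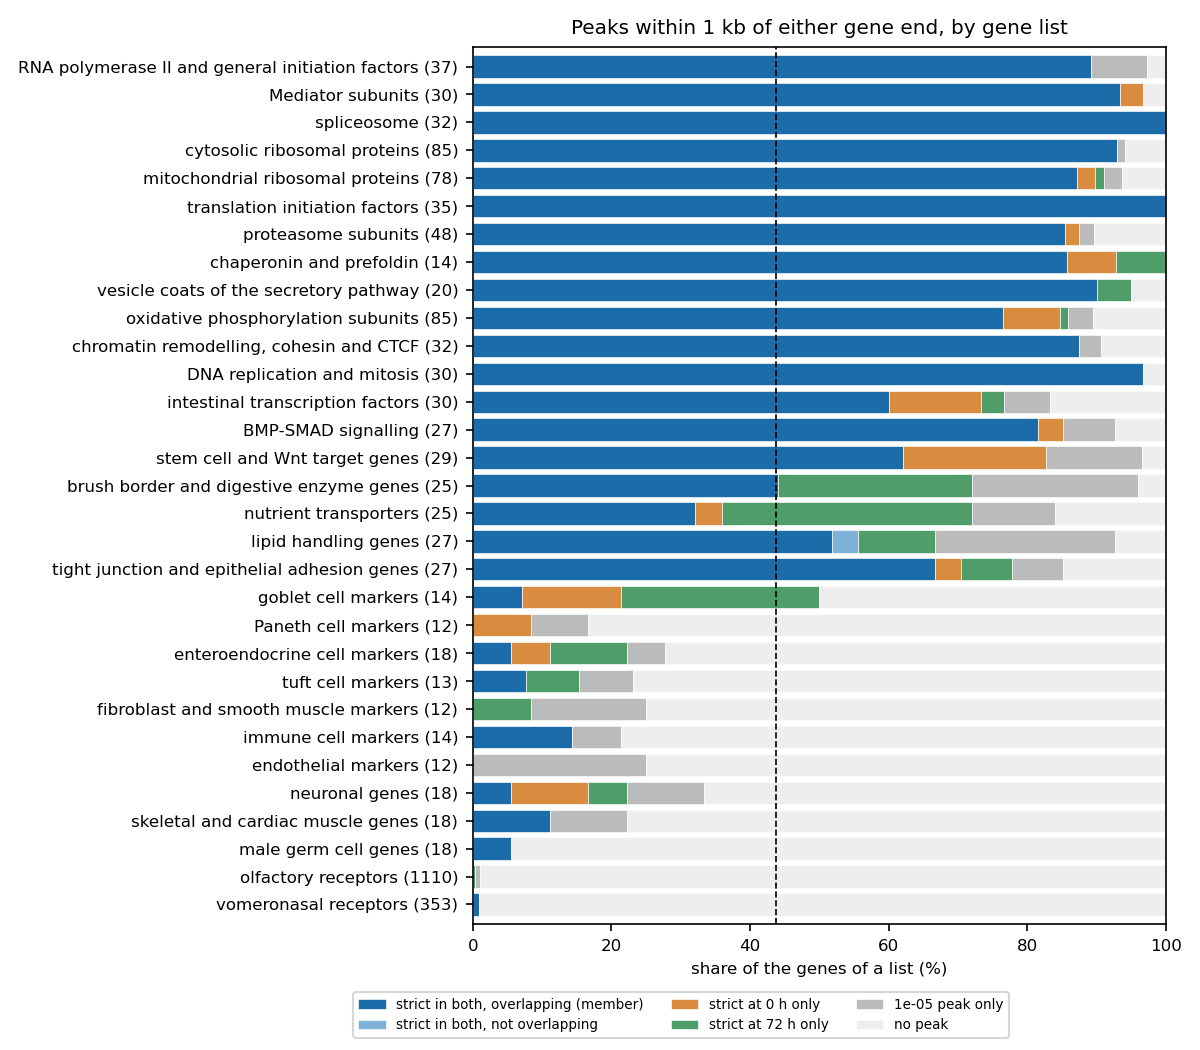
Share of the genes of each list (x axis, %) by the peaks within 1 kb of either gene end (colours), with the number of genes in parentheses. The dashed line is the share of all protein-coding genes with a shared gene-end peak, 43.8%, and the lists of general machinery lie to its right and the lineage and foreign markers to its left.

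Of the 477 list genes with a shared peak and a known strand, 468 (98.1%) had it at a start and 9 only at the 3′ end: Rpl3l, Kmt2d, Sp5, Slc2a5, Apoa1, Plin2, Pck1, Itgam and Ckm. Rpl3l shared that peak with an end of Msrb1, and Kmt2d with an end of Prkag1. Slc2a5 (fructose transport), Apoa1 (an apolipoprotein), Plin2 (a lipid droplet coat protein) and Pck1 (gluconeogenesis) are enterocyte genes, and their summits lay 248, 380, 293 and 522 bp from the 3′ end. Counted at RefSeq transcript starts alone, the share was 362 of 409 (88.5%) for the general machinery, 67 of 138 (48.6%, 40 to 57.2) for the epithelial lists and 0 of 21 for the fibroblast, immune and endothelial markers, beside 7341 of 17274 (42.5%) of all genes with such a start. On that count the interval for the epithelial lists contained the share of all genes.

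Some of the sites lay close to more than 1 gene. Of the 9428 peaks 1687 (17.9%, 17.1 to 18.7) lay within 1 kb of the ends of 2 or more genes, against 17 of 267 (6.37%, 3.75 to 10) strict at 0 h with no 72 h peak and 22 of 265 (8.3%, 5.28 to 12.3) strict at 72 h with no 0 h peak. Genes that started head to head within 1 kb of a neighbour made up 1050 of 7742 genes with a shared peak (13.6%, 12.8 to 14.3). They made up 1158 of all 17274 genes with a known strand (6.7%, 6.34 to 7.09) and 49 of 7406 genes without any peak (0.662%, 0.49 to 0.874). In such a pair 1 peak can count for both genes, which by itself raises the number of genes with a peak. Of 583 head-to-head pairs, 527 (90.4%) had a shared gene-end peak at both genes, and in all 527 the genes had at least 1 peak in common. The starts of these 527 pairs were a median of 98 bp apart (quartiles 45 to 208 bp). Windows of 1 kb around starts this close nearly coincide, so the common peak largely follows from the rule.

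General machinery was well represented among the pairs, with 80 of 365 such genes (21.9%, 17.8 to 26.5) head to head with a neighbour, against 2 of 77 epithelial list genes (2.6%, 0.316 to 9.07). Over all genes with a shared peak and a known strand the share was 13.6%. In 8 pairs both genes were in the lists. Rps28 and Ndufa7, a ribosomal protein and a subunit of respiratory complex I, start 10 bp apart under 1 peak (chr17:33824280-33824880) whose summits were 24 bp apart between the libraries. Mrpl46 and Mrps11, of the large and small mitochondrial ribosomal subunits, start 42 bp apart under a peak whose summits were 5 bp apart. Mrpl32, whose NRF1 motifs are printed above, starts 205 bp from the proteasome gene Psma2, and Med22 starts 43 bp from Rpl7a. Mttp was 1 of the 2 epithelial genes, 30 bp from the start of the tRNA methyltransferase gene Trmt10a, and Foxa3 was the other, 838 bp from Sympk.

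Sequence had no part in choosing the set. Promoters with a shared peak were rich in CpG: over 8348 RefSeq promoters of 7341 genes the CpG ratio had a median of 0.815 (quartiles 0.674 to 0.942), and 79.6% (78.7 to 80.4) were CpG-rich, with a ratio of at least 0.6 and a GC content of at least 50%. Over all 21045 promoters the median was 0.574 and 45.6% were CpG-rich. The 190 promoters whose strict peak was at 0 h only had a median of 0.657 and 57.4% (50 to 64.5) CpG-rich. The 137 whose strict peak was at 72 h only had a median of 0.231 and 5.84% (2.55 to 11.2) CpG-rich, close to the 0.222 and 10% (9.42 to 10.7) of the 9048 promoters with no peak. By this measure the shared promoters stood at one end, and the 72 h-only promoters lay with the no-peak promoters at the other.

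Each of 17 motifs was searched in the same 300 bases, on both strands and as the exact letters given where it first appears below. Matches of different motifs may overlap, as those of CRE and ZNF143 do in the Rps9 promoter printed above, and a nearly palindromic motif such as NRF1 or CRE can match on both strands at 1 place. A match is a run of letters and not a measured binding site.

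ETS motifs (CCGGAAG), bound by a large family of activators, separated the shared promoters most clearly. They were in 1838 of 8348 (22%, 21.1 to 22.9), against 4.74% (2.19 to 8.8) of the 0 h-only, 5.11% (2.08 to 10.2) of the 72 h-only, 2.59% (2.27 to 2.93) of the no-peak and 11.7% of all promoters. Among CpG-rich promoters alone the shares were 24% with a shared peak and 5.29% with no peak. The ZBTB33 motif (TCTCGCG) was in 6.55% of shared against 0.829% of no-peak promoters and 3.51% of all. The motif of NRF1 (GCATGCG), an activator of nuclear genes for mitochondrial proteins, was in 7.7% against 1.78% and 4.48%, and the CRE (TGACGTC), bound by CREB and ATF factors, in 6.21% against 1.61% and 3.88%. Among CpG-rich promoters these contrasts were smaller, with ZBTB33 in 7.93% (7.29 to 8.61) of shared and 4.63% (3.35 to 6.2) of no-peak promoters, NRF1 in 8.67% and 5.84%, and the CRE in 7% and 4.07%. The ZNF143 motif (ACTACAA) was in 4.94% (4.48 to 5.42) of shared, 0.526% (0.0133 to 2.9) of 0 h-only and 3.64% of all promoters. The SP/KLF GC box (GGGCGGG) was in 54.1% of shared and 52.6% of 0 h-only promoters, with overlapping intervals, and in 6.57% of 72 h-only, 12.4% of no-peak and 34.2% of all promoters. Among CpG-rich promoters it was in 59.8% of shared and 48% of no-peak ones. The E-box (CACGTGA) was in 6.48% of shared promoters, beside 4.43% of all.

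HNF4, AP-1, GATA and CDX motifs were more frequent in 72 h-only than in shared promoters. HNF4 motifs (CAAAGTC) were in 16.8% (11 to 24.1) of those and in 3.39% (3.01 to 3.8) of shared promoters, beside 4.8% of no-peak promoters and 4.17% of all. AP-1 motifs (TGAGTCA) were in 10.9% (6.26 to 17.4) and 3.05% (2.7 to 3.45), beside 6.35% of no-peak promoters and 4.69% of all. GATA motifs (AGATAAG) were in 6.57% (3.05 to 12.1) and 1.51%, beside 3.92% of no-peak promoters and 2.63% of all. CDX motifs (TTTATGG) were in 7.3% (3.56 to 13) and 1.32%, beside 3.21% and 2.28%. For AP-1 and GATA the no-peak share lay within the interval of the 72 h-only promoters. Few of the 72 h-only promoters (5.84%) and most of the shared ones (79.6%) were CpG-rich. Among shared promoters that were not CpG-rich the shares were 6.16% (5.07 to 7.41) for HNF4 and 6.34% (5.23 to 7.6) for AP-1. They were 2.88% (2.13 to 3.78) for GATA and 2.17% (1.53 to 2.98) for CDX. For AP-1 and GATA these intervals overlapped those of the 72 h-only promoters, and for HNF4 and CDX they did not. TCF/LEF motifs (CTTTGAT) were in 2.92% (0.801 to 7.31) of 72 h-only, 2.24% of shared, 4.41% of no-peak and 3.25% of all promoters. FOX motifs (TGTTTAC) were in 2.92%, 2.2%, 3.97% and 3.03%. A TATA box (TATAAA) anywhere in the window was in 5.71% (5.23 to 6.23) of shared, 21.9% (15.3 to 29.8) of 72 h-only, 20.9% of no-peak and 12.7% of all promoters. Placed 40 to 20 bp upstream, as in Foxa3 and Defa22 above, it was in 0.851% of shared and 4.35% of no-peak promoters. There it was also in 1.05% of 0 h-only, 6.57% (3.05 to 12.1) of 72 h-only and 2.56% of all promoters. The SMAD GC element (GGCGCC), itself made of G and C, was in 23.7% of shared, 5.11% of 72 h-only, 5.33% of no-peak and 15.5% of all promoters, and among CpG-rich promoters in 27.5% of shared and 30.3% of no-peak ones. The NF-Y CCAAT box, searched by those 5 letters, was in 40.3% of shared, 38.4% of 0 h-only, 48.2% (39.6 to 56.9) of 72 h-only, 38.6% of no-peak and 38.5% of all promoters. Among CpG-rich promoters it was in 39.2% (38 to 40.4) of shared and 29.5% (26.6 to 32.6) of no-peak ones.

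**Figure D4:**
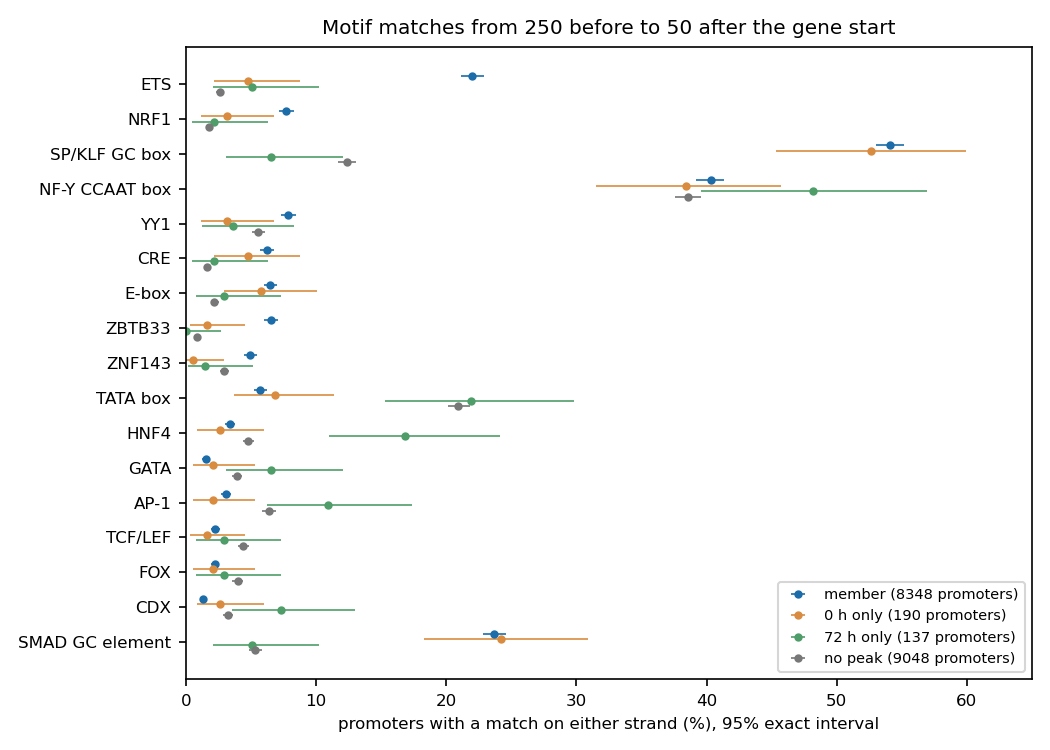
Share of promoters with at least 1 match on either strand (x axis, %, points with exact 95% intervals) for each motif, in promoters with a shared peak (member), a strict peak at 1 time only, or no peak. ETS stands apart for shared promoters (22%), and HNF4 (16.8%) for 72 h-only promoters. The AP-1 interval of 72 h-only promoters (10.9%) contains the no-peak share.

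Motifs had preferred places around the start. In shared promoters 34.3% of ETS matches and 41.6% of CRE matches lay in the 50 bp just upstream of the start, and CCAAT boxes had a median position 84 bp upstream. No-peak promoters were similar, with 31.7% (26 to 37.9) of ETS and 35.1% (28.9 to 41.7) of CRE matches there and CCAAT boxes 93 bp upstream. Of the YY1 matches 43.4% in shared and 20.5% (17.1 to 24.2) in no-peak promoters lay in the 50 bp downstream of the start. Of these 81.8% and 58.9% were on the gene's own strand. In shared promoters the SMAD GC element also had its fullest 50 bp there, with 22.9% of its matches, beside 20.5% in no-peak promoters. The YY1 motif (AAGATGG) was in 7.83% of shared and 6.28% of all promoters, and among CpG-rich promoters in 8.02% of shared and 2.2% of no-peak ones. With or without a motif, the median distance between the 2 libraries' summits stayed between 18.5 and 32 bp for all 17 motifs.

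Within the set the gene groups differed in their motifs. ETS motifs were in 127 of 396 promoters of the general machinery (32.1%, 27.5 to 36.9) and in 7 of 74 of the epithelial lists (9.46%, 3.89 to 18.5), and YY1 motifs in 15.9% (12.4 to 19.9) and 2.7% (0.329 to 9.42). ZBTB33 was in 21.2% (12.1 to 33) of promoters of cytosolic ribosomal proteins, and NRF1 in 17.2% (8.59 to 29.4) of those of oxidative phosphorylation subunits. CCAAT boxes were in 22 of 26 promoters of replication and mitosis genes (84.6%, 65.1 to 95.6), as in Mcm7 above, against 35.4% (30.6 to 40.3) of the general machinery. The HNF4 motif was in 1 of the 74 epithelial promoters, that of Cdhr2.

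Peaks away from gene ends were not used by the rule. They were taken from the lenient lists when called in 1 library only, and assigned to the nearest gene within 50 kb. Of the 9482 genes with a shared gene-end peak, 3055 (32.2%) had at least 1 such distal peak at 72 h only and 19.2% had 1 at 0 h only, beside 25.6% and 17% of all protein-coding genes. Counting only strict distal peaks with no lenient peak in the other library, the shares were 16.1% and 3.97%, beside 12.2% and 3.55% of all genes. Gene length differs between these groups and moves with the counts, and its part in them was not tested beyond a restricted range of lengths. Among genes of 10 to 50 kb the shares were 29.5% (28.2 to 30.9) with and 24.4% (23.1 to 25.7) without a shared peak at 72 h, and 16.4% and 16% at 0 h. At 0 h only, the share was thus near that of other genes.

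The gene groups differed widely here. In the general machinery 15.3% of genes with a shared peak had a 72 h-only and 12.5% a 0 h-only distal peak, and in the epithelial lists 69.7% and 45.9% did. The median gene was 8.72 kb and 35.2 kb long. At 10 to 50 kb the difference remained, with 27 of 156 (17.3%, 11.7 to 24.2) and 24 of 39 (61.5%, 44.6 to 76.6) for 72 h-only peaks, and 14.7% (9.58 to 21.3) and 46.2% (30.1 to 62.8) for 0 h-only peaks. Within that range the median gene was still 19.2 kb and 27.1 kb long. The part of this remaining difference in length was not tested. Among replication and mitosis genes 10.3% and 13.8% had a 72 h-only and a 0 h-only distal peak.

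BMP-SMAD and lipid genes had the largest differences between the times among the 19 lists plotted, counting lenient peaks. Of the 22 BMP-SMAD genes with a shared gene-end peak, 18 (81.8%) had a distal peak at 72 h only and 4 (18.2%) one at 0 h only. Over all genes with a shared gene-end peak the shares were 32.2% and 19.2%. The median BMP-SMAD gene was 46.4 kb long, against 22.2 kb over those genes, and the part of length was not tested. With strict distal peaks the BMP-SMAD counts were 9 of 22 (40.9%, 20.7 to 63.6) and 1 of 22 (4.55%, 0.115 to 22.8), beside 16.1% and 3.97%. The lipid genes then had 7 of 14 and 1 of 14. For the nutrient transporters, where the difference was then largest, the counts were 5 of 8 and 0 of 8. Bmpr1a, Acvr1 and Smad1 each had 3 at 72 h only and 0 at 0 h only, and Smad7, an inhibitory SMAD, had 2 and 1. Id1, a direct BMP target, had 4 distal peaks common to both libraries and 0 in 1 library only. Lipid genes had 72 h-only distal peaks at 11 of 14 and 0 h-only ones at 3 of 14, with 4 and 0 at Mttp, 6 and 1 at Scarb1, a lipoprotein receptor, and 5 and 0 at Mogat2. Stem cell and Wnt genes had 14 of 18 and 11 of 18, and 8 and 5 of 18 with strict peaks. There Lgr5 had 1 at 72 h only and 2 at 0 h only, Znrf3 had 1 and 3, and Ephb3 had 0 and 2. Transcription factor genes had 10 of 18 and 11 of 18, which turned to 9 of 18 and 4 of 18 with strict distal peaks, with lenient counts of 8 and 2 at Ppara, a regulator of fatty acid oxidation, 0 and 3 at the vitamin D receptor gene Vdr, and 0 and 0 at Cdx2, whose 5 distal peaks were all common to both libraries.

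**Figure D5:**
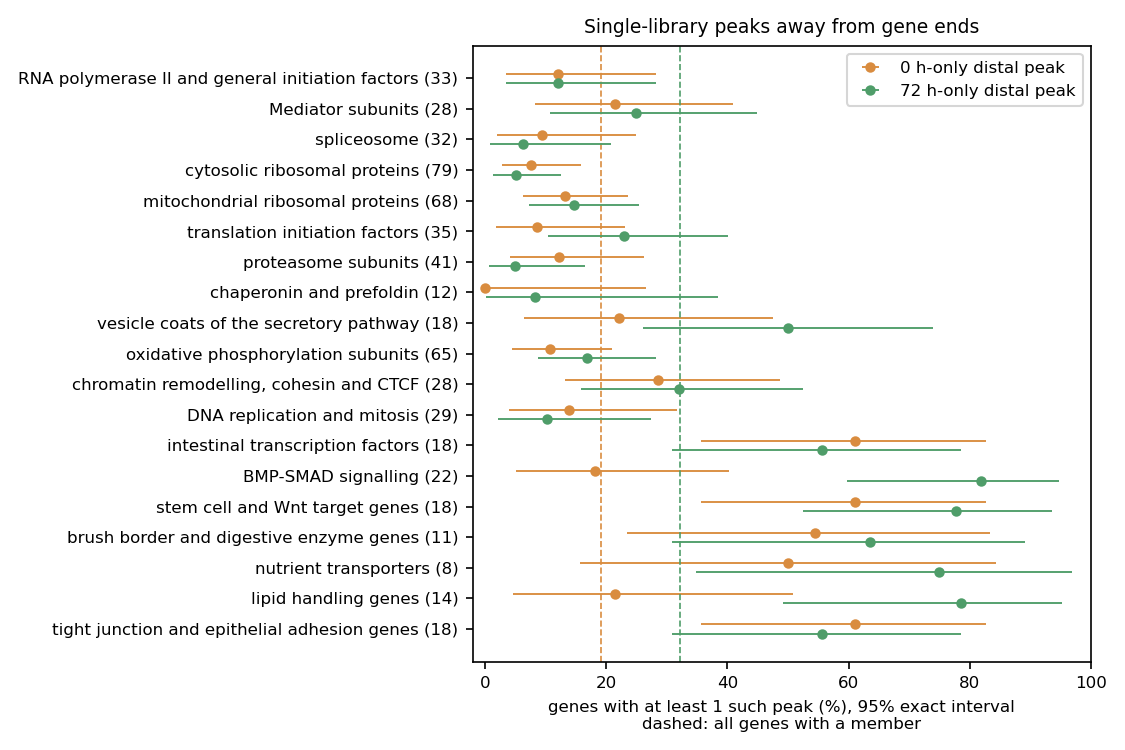
Share of the genes with a shared gene-end peak that had at least 1 distal lenient peak in 1 library only (x axis, %, points with exact 95% intervals), by gene list with the number of genes in parentheses. Dashed lines mark all genes with a shared gene-end peak (19.2% at 0 h only, 32.2% at 72 h only). For 72 h only every epithelial list lies to the right of its line. The BMP-SMAD (81.8%), lipid (78.6%), stem cell and Wnt (77.8%) and nutrient transporter (75%) lists lie furthest, with overlapping intervals.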

How the data were processed

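MACS2 2.2.7.1 and Bowtie2 2.4.1 are named in the submitters' processing notes with the mm10 build, beside bedtools 2.26.0, deepTools 3.5.4, cutadapt 1.9.1, Picard 2.18.27 and SAMtools 1.3.1. How each was set, and whether reads were shifted for Tn5 or deduplicated, is not given in the sources used here. Per library, the authors deposited positions of peaks called at p-value thresholds of 1e-05 and 1e-10, with no score or count, so depth is unknown and no height was compared. Whether a peak of 1 library only reflects depth or accessibility cannot be told apart.

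Genes came from the RefSeq table of GRCm38.p6 (21631 protein-coding genes). Strand, transcript starts and promoter sequence came from the RefSeq promoter table, which matched 17274 of them (79.9%), and analyses by start cover those. Peaks and promoters of 1 time only had no lenient peak of the other library, whereas genes of 1 time only lacked a strict one. A member's partner was the overlapping 72 h peak with the nearest summit. Promoters were classed by peaks within 1 kb of the start. No test was made, since each time point is 1 library. Shares carry exact Clopper-Pearson 95% intervals for counting error, and genes, peaks and promoters are not replicates.

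The members, the 31 gene lists and the 17 motifs were chosen with earlier results of these data known. Genes named are list members, the first up to 6 of each class in list order in most cases and otherwise picked for their values, the 10 genes with most peaks, the 5 largest summit distances and the 3 peaks on either side of the 1 kb limit. Printed promoters are of list genes not on chromosome 18 that hold the motif, nearest summit first. The Y chromosome was outside the rule. Overlap, distance and motif functions were tested on simulated data. Scripts ran on Python 3.11.15 with pandas 2.3.3, numpy 2.4.6, matplotlib 3.10.9 and SciPy 1.17.1.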

Additional observations from a re-analysis of the deposited data

Results flagged for a closer look

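Strict peaks on the Y chromosome, which the choice of sites left out, numbered 43 in the 72 h library and 21 in the 0 h library. Of the 21 at 0 h, 15 (71.4%, exact 95% interval 47.8 to 88.7) were overlapped by a strict 72 h peak. They were looked at again because they lie outside the chromosomes described and were more numerous at 72 h. Over all strict peaks outside chromosomes 1 to 19 and X the numbers were 90 at 0 h and 108 at 72 h.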

How the results depend on the processing

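No paired analysis was possible because each time point is 1 library with no test. Among lists of genes with a shared peak, the order of the 72 h-only and 0 h-only shares of distal peaks turned with strict in place of lenient peaks for 3: transcription factors (55.6% and 61.1% to 50% and 22.2%), tight junction genes (55.6% and 61.1% to 33.3% and 16.7%) and the spliceosome (6.25% and 9.38% to 3.12% and 0%). The cause was not tested. Of 50 alternative values of the main results 30 stayed within the limit set for each (1.5 times a count, or the 95% interval of a share) and 20 moved past it, and of 150 values for single lists, motifs and other shares 122 stayed and 28 moved. The number of shared gene-end peaks ran from 8019 (summits within 100 bp) to 12870 (1e-05 lists). With the 1e-05 lists, 9 secretory and tuft, 4 fibroblast, immune and endothelial and 12 foreign-tissue genes had a shared peak, the summits of 66.3% were within 50 bp, 96.8% lay at a start, ETS was in 20.9% of promoters and 76.7% were CpG-rich. With a window of 2 kb the secretory and tuft genes were 5 and the fibroblast, immune and endothelial ones 4. With 0.5 kb the latter were 0, and 14.1% of peaks lay near 2 or more genes. With transcript starts only, fewer genes could be counted: 67 epithelial, 0 fibroblast, immune and endothelial and 3 foreign-tissue genes. Summits within 50 bp were 71.7% against the nearest 1e-05 summit and 71.8% where each peak had 1 partner on both sides. Distal 72 h-only peaks were at 16.1% of the genes at 1e-10 and 29.5% at 10 to 50 kb, and 0 h-only ones at 3.97% and 16.4%. The lists hold no depth, and the precision of the calls is not known.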
